A study of Mus musculus with 56 samples.

Results

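The genes described are those for the voltage-gated, calcium-activated, inward rectifier and tandem-pore potassium channels, the voltage-gated calcium channels and the voltage-gated sodium channels, with their auxiliary subunits. They were taken by symbol from a table of RNA levels in mouse back skin: every Kcn, Cacna, Cacnb, Cacng and Scn symbol of the standard form, with the exception of Kcnj8 and Scn7a. This gave 131 genes of the 24062 in the table. No measured value entered the choice.

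The skin came from CD1 mice at postnatal day 22 that carried the 3 reporters K14-H2BGFP, Crabp1-GFP and Lef1-RFP, and all groups share them. Cells were separated by fluorescence into 7 populations. DP is the dermal papilla and DF the dermal fibroblasts, and these form the mesenchyme. BuSC are stem cells of the bulge, HGSC stem cells of the hair germ, Foll keratinocytes of the upper follicle and Epi keratinocytes of the epidermis. Neg is the negative fraction, a mixture by its label. Each population was collected from 4 dorsal zones in 2 biological replicates, 56 libraries in all, which makes 8 libraries per population (n = 8, a pair of replicates from each of 4 zones). The labels give zones a number and no position on the body, and their batch entry repeats the zone, so a batch effect and a zone effect cannot be told apart. K14 is a keratin of basal keratinocytes, and Crabp1 and Lef1 are active in parts of the papilla, dermis and follicle, so the sort rests on these genes.

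The values are RPKM, reads scaled to library total and gene length, which means that levels can be set side by side between genes. The whole reads behind them could be recovered and came to 3.24 to 87.8 M per library, with a median of 14.7 M. By overall profile 52 of the 56 libraries stood closest to a library of their own population, and the 4 others were Foll replicate 2 of zones 1, 3 and 4 and Epi zone 3 replicate 2. Papilla markers (12 genes) summed to 1304 to 1668 RPKM in DP and 76.6 to 144 RPKM in DF, and keratinocyte markers (5 genes) to 5052 to 10578 RPKM in Epi and 33.4 to 62.9 RPKM in DP. In bulk libraries fewer cells of a type and less RNA per cell cannot be told apart.

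Voltage-gated calcium channels consist of a pore (the Cacna1 genes) with alpha2delta (Cacna2d), beta (Cacnb) and, in some tissues, gamma (Cacng) subunits that set how much of the pore reaches the membrane and how it gates. Potassium channels let potassium leave the cell and so hold the membrane voltage. Voltage-gated pores (Kcna, Kcnb, Kcnc, Kcnd, Kcnh, Kcnq) open on depolarisation. The silent subunits Kcnf, Kcng, Kcns and Kcnv modify such pores and are counted with them here. Inward rectifiers (Kcnj) and tandem-pore channels (Kcnk) act near rest. Calcium- or sodium-activated channels (Kcnma, Kcnmb, Kcnn, Kcnt) follow the ions inside, and Kcnu is counted with them by its family. Sodium channels (Scn) carry the upstroke of the action potential in nerve and muscle. Skin cells other than nerve and muscle do not usually fire action potentials, and calcium entry in keratinocytes is known mostly for its part in differentiation.

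Most of these genes were low. Of the 131, 74 had a mean of at least 1 RPKM in their highest population, 26 of at least 5 RPKM and 13 of at least 10 RPKM. The median of the highest population mean was 1.16 RPKM for the channel genes and 4.54 RPKM for all 24062 genes. Cacng8 was at 0 in all 56 libraries. Among genes of at least 1 RPKM, DP was the highest population for 20 channel genes (27.0%, against 17.7% of all such genes) and Neg for 22 (29.7%, against 15.4%). HGSC was highest for 8 (10.8%, against 22.02%) and BuSC for 2 (2.70%, against 10.3%). DF led for 11 (14.9%, against 5.72%), Epi for 6 (8.11%, against 17.5%) and Foll for 5 (6.76%, against 11.3%).

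Summed over the 131 genes, channel RNA was highest in DP. The 8 DP libraries held 359 RPKM at the lowest, 437 at the median and 496 at the highest. The sums were 127, 149 and 159 RPKM in DF, 79.2, 96.4 and 114 RPKM in BuSC, 80.0, 95.4 and 108 RPKM in HGSC, 91.2, 117 and 157 RPKM in Foll, 108, 156 and 167 RPKM in Epi, and 186, 210 and 260 RPKM in Neg. Every DP library lay above every other library, and Neg lay above DF, BuSC, HGSC, Foll and Epi. After median-of-ratios scaling DP still held the highest sums (345 to 461 RPKM), but Neg, at a mean of 206 RPKM, was then below DF, at 254 RPKM, with ranges that overlapped. A single gene, Cacna1g, made up 44.6% of the DP mean sum. The leading genes changed with the population: Cacna1g, Cacng7 and Kcne4 in DP, Cacna2d1, Cacna1g and Cacnb3 in DF, Kcnj15, Cacnb3 and Kcnj13 in BuSC, Cacnb3, Kcnj13 and Kcnj15 in HGSC, Kcnj2, Kcnj16 and Kcnj15 in Foll, Kcnj16, Kcnj2 and Kcnj13 in Epi, and Kcna1, Kcnj13 and Kcna6 in Neg.

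**Figure D1:**
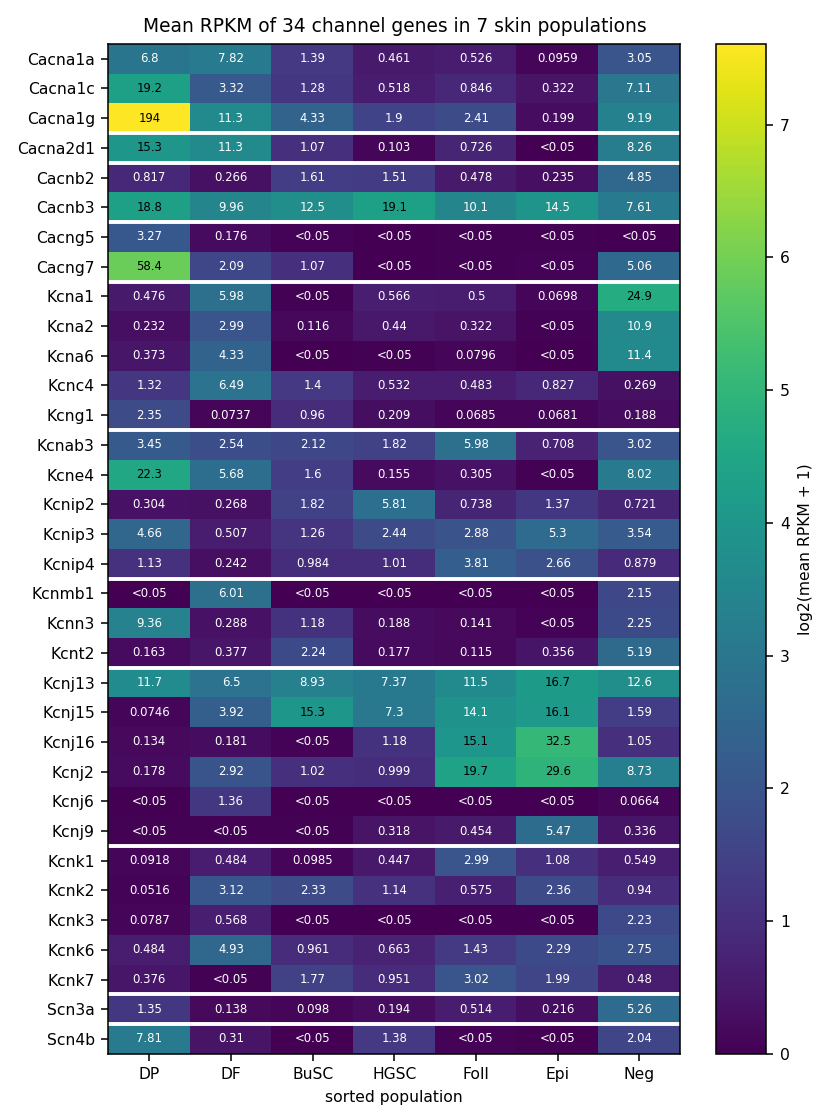
Mean RPKM of 34 channel genes (down the page) in the 7 sorted populations (across), 8 libraries each. Colour gives log2(mean RPKM + 1), and the number in each cell is the mean RPKM. Cacna1g at 194 RPKM in DP is the highest cell, Kcnj16 and Kcnj2 lead in Epi and Foll, and Kcna1, Kcna2 and Kcna6 lead in Neg.

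Tests used log2(RPKM + 1) in limma, with 1 mean for each of the 28 population-by-zone groups, over the 16731 genes with at least 1 RPKM in at least 2 libraries. Of the 131 channel genes 83 passed this filter and 48 did not, and the highest population mean among those 48 was 0.766 RPKM. Calls needed an adjusted p under 0.05 (Benjamini-Hochberg over all tested genes) and, between populations, a difference of at least 1 on the log2(RPKM + 1) scale, on which the change of a low gene is understated. Among the 7 populations 75 of the 83 tested channel genes differed by the moderated F test, beside 81.8% of all tested genes, so variation between populations as such does not set the channel genes apart. A channel gene was called highest in a population where it passed against each of the other 6. That held for 21 channel genes, beside 11.1% of all tested genes: 7 in DP (beside 3.17%), 3 in DF (1.35%), 1 in HGSC (0.436%), 1 in Foll (0.454%), 2 in Epi (0.938%) and 7 in Neg (4.48%). For BuSC the limma count was 0 (beside 0.287%), and no channel gene met the size of difference there before any p was applied; voom with limma on the recovered reads gave 1. After quantile or median-of-ratios scaling the DF count was 8, and the Neg count 3 or 4.

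Calcium channel pores set DP apart from DF. The question of this comparison is how the signalling mesenchyme of the follicle differs from the surrounding dermis. Cacna1g, the pore of a T-type channel that opens at voltages close to rest, had 165 RPKM in the lowest, 185 at the median and 241 in the highest of the 8 DP libraries, against 8.41, 10.8 and 14.4 RPKM in the 8 DF libraries. Every DP library stood far above every other library of the series, of which the highest was in DF. The means were 194 ± 30.3 RPKM in DP and 11.3 ± 2.24 RPKM in DF (SD, n = 8 each), a log2 difference of 3.99 (SE 0.21, limma adjusted p = 2.17e-17). The gene lies on chromosome 11 at 94408391 to 94474400 (RefSeq, GRCm38.p6), on the build the files use.

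Cacna1c, the pore of the L-type channel of heart and smooth muscle, was also highest in DP. Its DP libraries had 15.8 RPKM at the lowest, 18.0 at the median and 24.8 at the highest, against 1.98, 3.47 and 4.70 RPKM in DF. Neg came between, with 5.86, 7.04 and 9.32 RPKM, and none of the 3 ranges overlapped. DP was higher than DF by 2.24 on the log2 scale (SE 0.20, limma adjusted p = 1.82e-11).

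Cacna1h, a further T-type pore, had 2.27, 3.72 and 4.98 RPKM (lowest, median, highest) in DP, against 0.0355, 0.290 and 0.801 RPKM in DF. The ranges did not overlap, and the log2 difference was 1.76 (SE 0.18, limma adjusted p = 5.78e-10). Cacna1d, the L-type pore of pacemaker and hair cells of the ear, averaged 1.82 ± 0.533 RPKM in DP and 0.266 ± 0.282 RPKM in DF, a difference of 1.16 that was no longer called after scaling the libraries by the median of ratios. Cacna1a, the P/Q-type pore of nerve endings, had a median of 6.69 RPKM in DP and 7.84 RPKM in DF. The ranges of Cacna1a overlapped and the difference of -0.17 did not pass (limma adjusted p = 0.598); after median-of-ratios scaling it was -0.98 (limma adjusted p = 0.000698).

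In all, 4 of the 6 tested calcium pores were called higher in DP than in DF, beside 24.2% of all tested genes, and 3 after median-of-ratios scaling. Summed, the 10 pore genes held 197, 218 and 269 RPKM in DP and 18.4, 23.5 and 27.1 RPKM in DF (lowest, median, highest). After median-of-ratios scaling the mean sums were 211 RPKM in DP and 40.7 RPKM in DF, the same order.

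Of the 3 tested gamma subunits, Cacng7 and Cacng5 were called higher in DP than in DF, and Cacng4 was not (0.33, limma adjusted p = 0.368). Cacng7 belongs to the branch of the Cacng family best known in brain as auxiliary proteins of AMPA-type glutamate receptors. It had 30.9 RPKM at the lowest, 59.7 at the median and 80.4 at the highest in DP, against 0.0881, 0.846 and 10.7 RPKM in DF. The ranges did not overlap, although single DF and Neg libraries reached 10.7 and 26.3 RPKM. Cacng5, of the same branch, averaged 3.27 ± 2.55 RPKM in DP and 0.176 ± 0.153 RPKM in DF, a log2 difference of 1.64 (SE 0.11, limma adjusted p = 5.41e-15). Cacng7 was the channel gene with the widest DP to DF difference, 4.71 (SE 0.31, limma adjusted p = 1.46e-14). On chromosome 7 it is followed at 25.8 kb by Cacng8, which was at 0 throughout, and by Cacng6, whose highest population mean was 0.00351 RPKM.

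The other auxiliary subunits did not follow. Cacna2d1, the alpha2delta subunit that binds gabapentin, had 11.3, 15.8 and 18.1 RPKM in DP and 9.19, 11.4 and 12.8 RPKM in DF (lowest, median, highest). The ranges overlapped, the difference of 0.39 did not pass (limma adjusted p = 0.0641), and under median-of-ratios scaling it turned to -0.44. Cacnb3, a beta subunit found in many tissues, averaged 18.8 ± 6.48 RPKM in DP and 9.96 ± 2.68 RPKM in DF. The difference of 0.82 passed by p (limma adjusted p = 0.0110) but was under the threshold of 1, so it was not called. After median-of-ratios scaling it was -0.01. Its means over the 7 populations ran from 7.61 RPKM in Neg to 19.1 RPKM in HGSC. The populations differed (moderated F test, limma adjusted p = 0.000138), although no neighbouring pair in that order passed the test.

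Among potassium channels the gene with the clearest DP pattern was Kcnn3, the pore of a small-conductance channel opened by calcium inside the cell. It had 6.33, 9.65 and 11.7 RPKM in DP, against 0.0735, 0.271 and 0.575 RPKM in DF (lowest, median, highest). All DP libraries stood above all others, of which the highest was a Neg library at 5.11 RPKM. The log2 difference from DF was 3.00 (SE 0.19, limma adjusted p = 2.68e-15). Kcne4, a single-span subunit known to inhibit certain voltage-gated potassium channels, averaged 22.3 ± 7.80 RPKM in DP and 5.68 ± 1.66 RPKM in DF, with 8.02 ± 3.5 RPKM in Neg. Its DP range of 10.9 to 36.6 RPKM lay above the DF range of 3.82 to 8.06 RPKM and overlapped that of Neg, which reached 14.4 RPKM. The call for Kcne4 (1.77, SE 0.27, limma adjusted p = 9.45e-07) depended on the scaling, since after median-of-ratios scaling the difference was 0.98, under the threshold of 1.

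Scn4b, a sodium channel beta subunit known to slow the closing of the pore, had 3.86, 8.49 and 11.9 RPKM in DP against 0.0303, 0.378 and 0.619 RPKM in DF (lowest, median, highest). The ranges did not overlap, and the log2 difference was 2.66 (SE 0.22, limma adjusted p = 4.95e-12). The pores that it could serve were low: the 9 sodium pore genes together averaged 2.98 RPKM in DP and 0.846 RPKM in DF. Scn2b, a further beta subunit 8.6 kb from Scn4b on chromosome 9, was also highest in DP at a mean of 1.09 ± 1.71 RPKM.

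**Figure D2:**
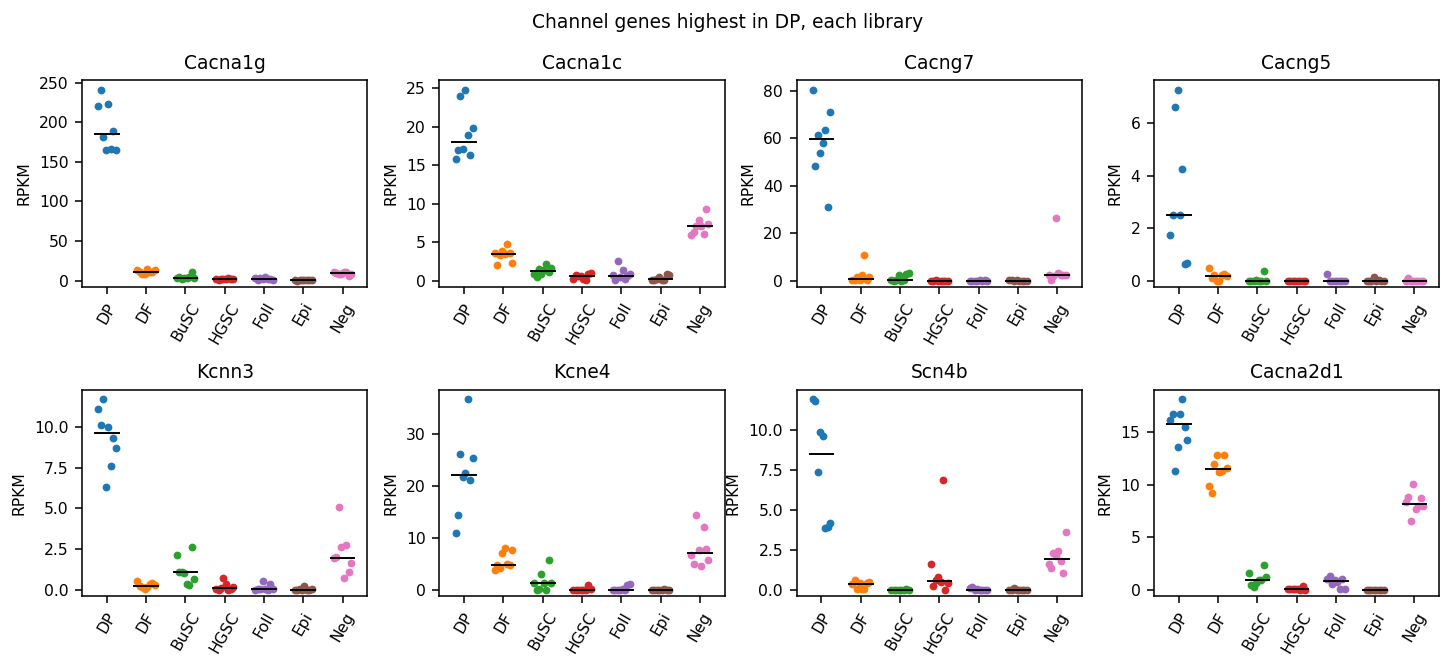
RPKM in each of the 8 libraries of the 7 populations for channel genes with their highest mean in DP. Points are libraries and bars medians, on linear axes that differ between panels. For Cacna1g, Cacng7, Kcnn3 and Cacna1c the 8 DP libraries lie above every library of the other populations, whereas the DP and DF libraries overlap for Cacna2d1.

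Beside these 9, the channel genes called higher in DP than in DF were Kcnip3 (1.73), Kcnmb4 (1.58), Kcng1 (1.48), Kcnd3 (1.15) and Scn3a (1.04), of which Kcnip3, Kcnmb4 and Kcnd3 overlapped in range. The 14 called higher make up 16.9% of the tested channel genes, beside 24.2% of all tested genes called higher in DP. The 14 called lower in DP are again 16.9%, beside 6.13% of all tested genes. The scaling matters for this reading. As deposited, the median difference of the tested channel genes was 0.05 and that of all tested genes 0.47; after median-of-ratios scaling these were -0.03 and 0. The split of higher to lower channel calls was 14 to 14 as deposited, 12 to 14 after quantile scaling and 10 to 14 after median-of-ratios scaling, while for all genes it was 4042 to 1025, 1363 to 1737 and 1054 to 2076. Kcnd3 and Scn3a were lost under both scalings, and Cacna1d and Kcne4 under the median of ratios. With a pseudocount of 0.1 in place of 1 the count higher in DP was 23, beside 5239 of all tested genes. With voom on the recovered reads it was 25, beside 5719.

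For the DP genes Cacng7, Kcnn3, Scn4b and Kcne4, RefSeq gives a single start in its promoter table (GRCm38.p6), and the 300 bases around it are shown so that the sequence in front of the genes that are high together can be read. Each runs 5′ to 3′ on the plus strand. Capitals mark matches, on either strand, to GGGCGG (the GC box), TATAAA (the TATA box), CTTTGA or CTTTGT (cores of Lef1 and Tcf sites), TGANTCA (AP-1) and CACGTG (the E-box).
Cacng7 (chr7:3332575-3332874): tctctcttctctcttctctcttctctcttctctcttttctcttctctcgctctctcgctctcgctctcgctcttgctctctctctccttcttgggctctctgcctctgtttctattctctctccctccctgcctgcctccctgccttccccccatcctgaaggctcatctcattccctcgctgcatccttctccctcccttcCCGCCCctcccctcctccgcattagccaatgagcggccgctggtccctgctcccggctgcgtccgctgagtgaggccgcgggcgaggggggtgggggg
Kcnn3 (chr3:89519914-89520213): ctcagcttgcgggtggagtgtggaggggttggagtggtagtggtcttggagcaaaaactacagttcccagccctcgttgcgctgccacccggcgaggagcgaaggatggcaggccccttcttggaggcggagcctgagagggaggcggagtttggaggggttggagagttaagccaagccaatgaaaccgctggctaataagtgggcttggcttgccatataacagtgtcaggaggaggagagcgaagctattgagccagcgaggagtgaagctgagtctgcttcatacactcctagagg
Scn4b (chr9:45138374-45138673): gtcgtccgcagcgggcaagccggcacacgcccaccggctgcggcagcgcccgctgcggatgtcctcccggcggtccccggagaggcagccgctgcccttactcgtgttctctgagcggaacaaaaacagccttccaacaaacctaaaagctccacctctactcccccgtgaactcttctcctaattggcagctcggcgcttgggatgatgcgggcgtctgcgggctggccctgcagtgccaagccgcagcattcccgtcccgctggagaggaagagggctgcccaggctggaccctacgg
Kcne4 (chr1:78816661-78816960): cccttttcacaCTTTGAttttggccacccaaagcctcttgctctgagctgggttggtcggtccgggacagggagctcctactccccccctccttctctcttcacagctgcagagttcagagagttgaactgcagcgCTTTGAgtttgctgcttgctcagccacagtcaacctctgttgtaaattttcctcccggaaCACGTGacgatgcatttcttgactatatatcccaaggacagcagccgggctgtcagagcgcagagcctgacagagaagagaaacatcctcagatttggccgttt
The 4 promoters share none of the searched letters. Cacng7 holds 1 match to GGGCGG, on the minus strand, Kcne4 holds 2 to CTTTGA and 1 to CACGTG, and the other two hold none. CTTTGA and CTTTGT share their first 5 letters, and a position can match only 1 of them. The table holds 131 entries for 95 of the channel genes, and GGGCGG occurs in 45.0% of these, against 35.7% of all 32851 promoters. CTTTGA occurs in 9.16% of the channel entries, against 16% of all promoters, CTTTGT in 18.3% against 18.7%, TATAAA in 5.34% against 13.6%, TGANTCA in 3.82% against 7.81%, and CACGTG in 5.34% against 7.15%. Scn4b, with 26 CG pairs in 300 bases, and Kcnn3, with 11, lie above the median of 7 over all promoters, as do Cacng7 with 15 and Kcne4 with 9. A match is letters only, and binding was not measured here.

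The 14 channel genes lower in DP than in DF were of other families. Among them were the voltage-gated potassium pores Kcna1, Kcna2, Kcna6, Kcnc4 and Kcnf1, their auxiliary subunits Kcnab2 and Kcnip1, the inward rectifiers Kcnj2, Kcnj6 and Kcnj15, the tandem-pore channels Kcnk2 and Kcnk6 and the BK channel subunit Kcnmb1. The log2 differences of the 14 ran from -1.01 (Kcnip1) to -2.74 (Kcnmb1), and all were also called after quantile and after median-of-ratios scaling.

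Kcnmb1, the beta subunit of the large-conductance calcium-activated channel that is known from smooth muscle, was at 0 in 7 of 8 DP libraries and reached 0.0818 RPKM in the other, against 2.39, 6.49 and 7.60 RPKM in DF (lowest, median, highest). The difference was -2.74 (SE 0.15, limma adjusted p = 3.65e-17). Neg was the other population with Kcnmb1, at a mean of 2.15 ± 1.48 RPKM, and the means of the remaining 5 stood at or below 0.0170 RPKM. Of 8 smooth muscle and pericyte markers none was at 0 throughout any population. Their summed level was 38.1 to 57.4 RPKM in DP, 672 to 1105 RPKM in DF and 461 to 948 RPKM in Neg. Of the 8, 6 had a mean of at least 1 RPKM in DP, and all 8 in DF and in Neg, and their part in the Kcnmb1 result was not tested. On chromosome 11 Kcnmb1 lies within the span of Kcnip1, which was itself highest in DF at 1.11 ± 0.738 RPKM and at 0 in all 8 DP libraries.

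Kcnc4, the pore of a fast-inactivating channel, had 0.0157, 0.704 and 5.51 RPKM in DP, against 2.85, 6.62 and 9.39 RPKM in DF (lowest, median, highest), where it was called highest. The ranges overlapped, and the difference was -1.87 (SE 0.39, limma adjusted p = 0.000126). Kcnk6, a tandem-pore channel, averaged 0.484 ± 0.367 RPKM in DP and 4.93 ± 1.22 RPKM in DF with no overlap, a difference of -2.01 (SE 0.24, limma adjusted p = 9.12e-09). Kcnk2, a stretch-sensitive tandem-pore channel, had a DP mean of 0.0516 RPKM and a DF mean of 3.12 ± 1.38 RPKM, and 12.2% of its exon bases also belong to the antisense gene A430027H14Rik. The sources used here do not say whether the libraries kept strand, and reads of such a pair cannot be told apart. Kcnj6, the pore of a G-protein-gated rectifier, was the third gene called highest in DF, at a mean of 1.36 ± 1.13 RPKM against 0.0169 RPKM in DP and 0.0664 RPKM in Neg.

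Kcnab2 was lower in DP than in DF with ranges that overlapped. Kcnab2, a cytosolic beta subunit of the Kcna channels, averaged 2.5 ± 1.67 RPKM in DP and 6.99 ± 2.64 RPKM in DF (difference -1.26, SE 0.28, limma adjusted p = 0.000255).

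**Figure D3:**
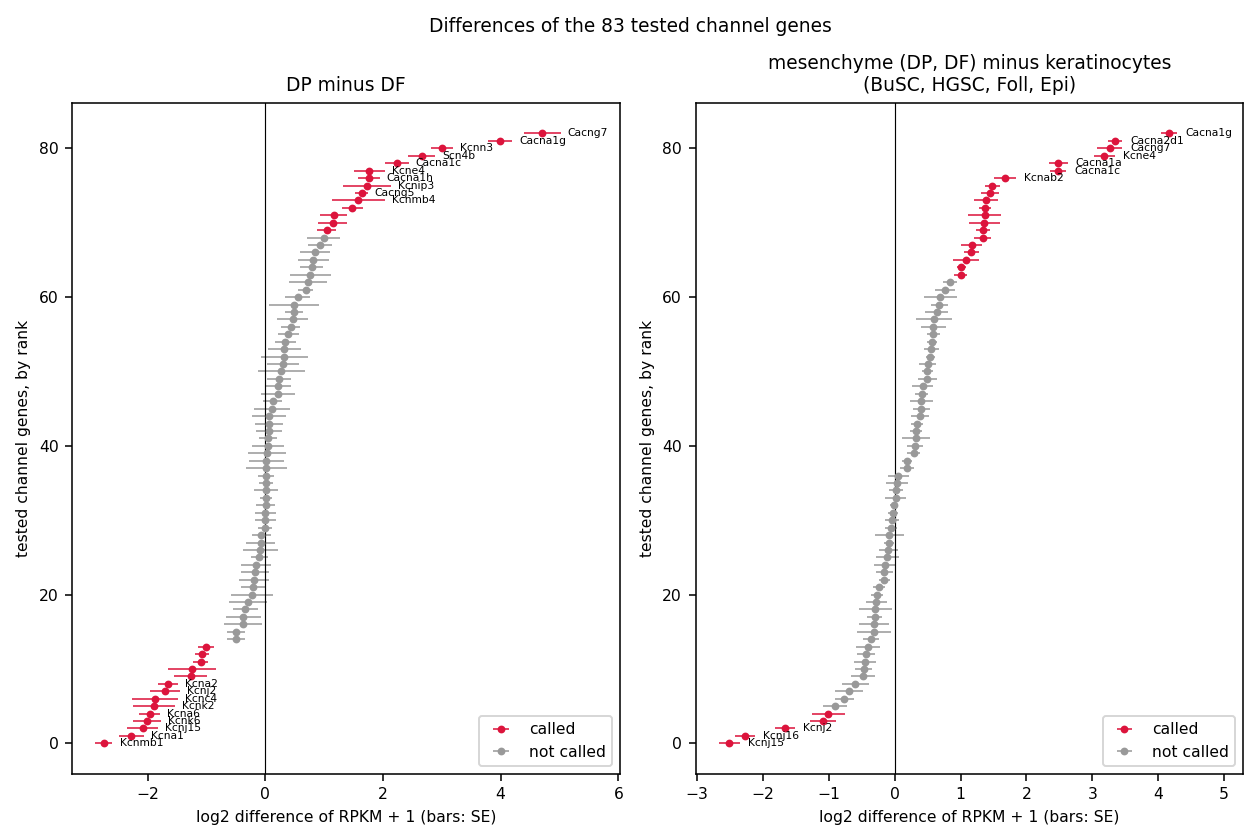
Log2 differences of RPKM + 1 for the 83 tested channel genes, ranked, between DP and DF (left) and between mesenchyme (DP and DF) and keratinocytes (BuSC, HGSC, Foll and Epi) (right). Red points were called, grey ones not, bars are standard errors, and the widest differences are named. DP against DF gave 14 calls in each direction, and mesenchyme against keratinocytes 20 higher and 5 lower.

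The voltage-gated potassium pores were highest in Neg. The 40 genes of this family summed to 47.5, 64.5 and 70.7 RPKM in Neg (lowest, median, highest), with the next population, DF, at 22.9, 30.0 and 37.0 RPKM and no overlap. After median-of-ratios scaling the ranges overlapped, at 47.7 to 68.3 RPKM in Neg and 38.1 to 60.9 RPKM in DF. Most of the Neg sum came from 3 genes of the Kcna group, which in nerve repolarise the axon. Kcna1 had 19.9, 26.5 and 28.6 RPKM in Neg, against 3.54, 5.80 and 8.47 RPKM in DF, and its highest library elsewhere had 1.86 RPKM. The order was Neg, then DF (difference 1.91, limma adjusted p = 1.93e-09), then the rest, among which no neighbouring pair passed the test.

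Kcna2 had 9.25, 10.7 and 13.6 RPKM in Neg against 1.03, 3.29 and 4.52 RPKM in DF (lowest, median, highest), and Kcna6 had 6.2, 10.6 and 19.7 RPKM in Neg against 2.39, 4.18 and 7.45 RPKM in DF. Kcna2 did not overlap between Neg and DF, and Kcna6 did. The exons of Kcna6 share 39.6% of their bases with the antisense gene Gm26673, so its level is uncertain. As deposited, both were called highest in Neg, by 1.65 for Kcna2 and 1.20 for Kcna6, but after quantile or median-of-ratios scaling neither was called against DF; Kcna1 was called in all 3 scalings.

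Kcna1 and Kcna6 lie 62.5 kb apart on chromosome 6, Kcna5 100.9 kb from Kcna1, and Kcna3 and Kcna2 52.8 kb apart on chromosome 3. All 5 had their highest mean in Neg, Kcna5 at 1.26 ± 1.46 RPKM and Kcna3 at 1.17 ± 0.999 RPKM. Within 200 kb of each other there were 21 pairs of channel genes, and in 9 of these both reached a mean of 1 RPKM. In 7 of the 9 the highest population was the same. The exceptions were Kcnj9 and Kcnj10, highest in Epi and Neg, and Cacng4 and Cacng5, highest in HGSC and DP. The share over all neighbouring genes was not taken, and some pairs have a gene in common, such as Kcna1. The count therefore does not set the channel genes apart. The window around the single RefSeq start of Kcna2 is shown for comparison with the DP genes, with matches to the same motifs in capitals.
Kcna2 (chr3:107101317-107101616): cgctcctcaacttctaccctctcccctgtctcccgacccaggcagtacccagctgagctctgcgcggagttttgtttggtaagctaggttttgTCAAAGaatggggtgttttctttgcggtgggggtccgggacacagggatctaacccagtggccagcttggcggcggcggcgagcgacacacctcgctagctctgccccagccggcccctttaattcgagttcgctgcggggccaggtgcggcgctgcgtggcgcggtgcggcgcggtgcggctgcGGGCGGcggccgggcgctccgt
It holds 1 match to GGGCGG, 1 to CTTTGA on the minus strand and 31 CG pairs.

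The remaining genes called highest in Neg were Scn3a, Kcnt2, Cacnb2 and Kcnk3. Scn3a, a sodium channel pore known from the developing brain, averaged 5.26 ± 1.08 RPKM in Neg, with 1.35 ± 0.307 RPKM in DP as the next (difference 1.40). Kcnt2, the pore of a sodium-activated potassium channel, averaged 5.19 ± 2.41 RPKM, Cacnb2, a beta subunit of heart calcium channels, 4.85 ± 2.61 RPKM, and Kcnk3, an acid-sensitive tandem-pore channel, 2.23 ± 1.02 RPKM. Kcnk3 was no longer called after either other scaling and Cacnb2 after quantile scaling. Neg is a mixture: the 9 Schwann cell markers summed to 486 to 654 RPKM in Neg, 320 to 403 RPKM in DF and 75.5 to 147 RPKM in DP, with a mean of at least 1 RPKM for all 9 in Neg and in DF and for 5 in DP. Of 7 neuron markers 1 had such a mean in Neg, where they summed to 4.45 to 15.8 RPKM and Snap25, Nefl and Nefm were at 0 in every library. Macrophage and dendritic cell markers summed to 1292.5 to 1894.7 RPKM in Neg and 45.6 to 100.3 RPKM in DF. In Neg, melanocyte markers summed to 335 to 630 RPKM and mast cell markers to 219 to 633 RPKM. Endothelial markers there summed to 140 to 277 RPKM and T cell markers to 90.3 to 199 RPKM. In DF these lists reached 19.9, 2.68, 8.66 and 1.13 RPKM, in that order. Dermal fibroblast markers summed to 7538 to 15107 RPKM in Neg and 40124 to 52795 RPKM in DF. Smooth muscle markers in Neg are given above. The part of any of these cell types in the Neg values was not tested.

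**Figure D4:**
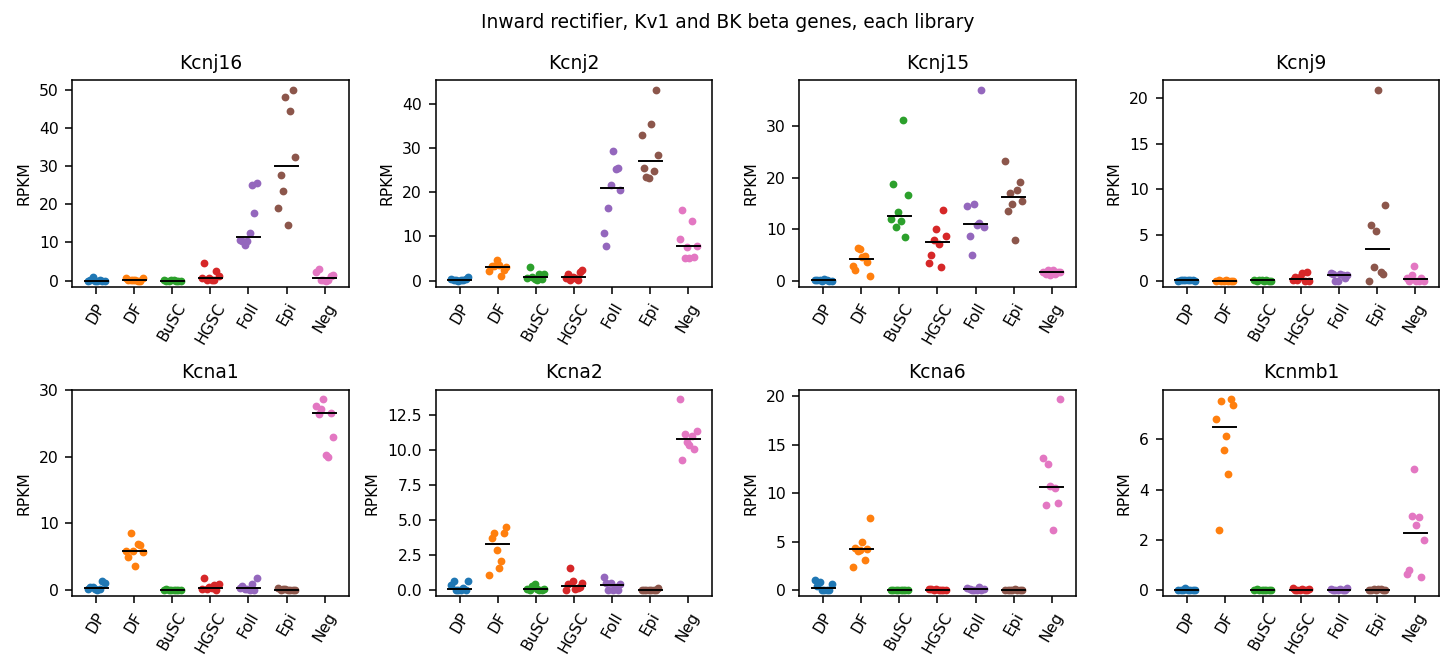
RPKM in each library of the 7 populations for 4 inward rectifiers (top) and for Kcna1, Kcna2, Kcna6 and Kcnmb1 (bottom). Points are libraries and bars medians, on linear axes that differ between panels. Kcnj16 and Kcnj2 are highest in Epi and Foll, the Kcna genes in Neg and then DF, and Kcnmb1 in DF and then Neg.

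In Epi and Foll the leading channel genes were inward rectifiers, which act near rest. The 14 Kcnj genes together had 81.7, 99.7 and 126.5 RPKM in Epi and 29.7, 62.9 and 87.0 RPKM in Foll (lowest, median, highest), while the means of BuSC, HGSC, DP and DF lay between 13.9 and 25.6 RPKM. Epi and Foll overlapped in range. Kcnj16, a subunit that forms channels with Kcnj10 or Kcnj15 in kidney, had 14.7, 30.0 and 50.03 RPKM in Epi and 9.20, 11.5 and 25.5 RPKM in Foll. In BuSC, by contrast, it averaged 0.0457 RPKM, with 4 of 8 libraries at 0, and in HGSC 1.18 ± 1.54 RPKM.

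Epi was called over Foll for Kcnj16, with overlapping ranges (difference 1.04, SE 0.25, limma adjusted p = 0.00333). That call rested on single libraries: the difference was between 0.85 and 0.98 without Epi replicate 2 of zone 1, 2 or 3, Epi zone 4 replicate 1, or Foll replicate 1 of zone 3 or 4. Foll in turn exceeded HGSC by 3.03 (limma adjusted p = 2.59e-11).

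Kcnj2, the classical strong inward rectifier of heart and muscle, lies 38.2 kb from Kcnj16 on chromosome 11 and was likewise highest in Epi and then Foll. Its Epi libraries had 23.2, 27.0 and 43.3 RPKM and its Foll libraries 7.74, 21.1 and 29.5 RPKM (lowest, median, highest). Epi and Foll overlapped and their difference did not pass (0.64, limma adjusted p = 0.0743), and Foll was above Neg (8.73 ± 4.10 RPKM) by 1.09 (limma adjusted p = 0.000493). DF followed at 2.92 ± 1.07 RPKM, and BuSC and HGSC had 1.02 and 0.999 RPKM. DP was lowest at 0.178 RPKM.

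The RefSeq promoter of Kcnj2, the member of this pair with a single start in the table, is shown with the same motifs in capitals.
Kcnj2 (chr11:111065914-111066213): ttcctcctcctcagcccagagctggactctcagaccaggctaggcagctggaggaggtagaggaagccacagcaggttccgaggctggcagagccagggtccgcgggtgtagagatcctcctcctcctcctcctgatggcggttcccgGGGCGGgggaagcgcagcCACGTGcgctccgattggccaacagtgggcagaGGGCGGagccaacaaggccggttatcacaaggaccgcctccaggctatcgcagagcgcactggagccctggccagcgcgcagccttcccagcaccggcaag
It holds 2 matches to GGGCGG, 1 to CACGTG and 18 CG pairs.

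Kcnj15, an inward rectifier of kidney and epithelia, was high in a wider set of keratinocytes. Its means were 16.1 ± 4.45 RPKM in Epi, 15.3 ± 7.21 RPKM in BuSC, 14.1 ± 9.83 RPKM in Foll and 7.30 ± 3.66 RPKM in HGSC. Neither the step from Epi to BuSC nor that from BuSC to Foll passed the test, and Foll exceeded HGSC by 0.79 (limma adjusted p = 0.0273). In the mesenchyme it averaged 0.0746 RPKM in DP and 3.92 ± 1.92 RPKM in DF. Kcnj13, a low-conductance rectifier known from retina and choroid plexus, averaged between 6.50 RPKM in DF and 16.7 RPKM in Epi and was not called among populations (moderated F test, limma adjusted p = 0.078). Of its exon bases 49.1% also belong to the coding gene Gigyf2 on the other strand, so reads of this pair cannot be told apart here.

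Epi against Foll asks how the epidermis differs from the upper follicle. It gave 2 channel genes higher in Epi, Kcnj9 and Kcnj16, beside 1.92% of all tested genes, and 2 lower, Cacna1g and Kcnk1, beside 5.86%. Kcnj9, a subunit of G-protein-gated rectifiers, had 0, 3.45 and 20.9 RPKM in Epi and 0, 0.604 and 0.859 RPKM in Foll (lowest, median, highest). The ranges overlapped, 6 of the series' 56 libraries had at least 1 RPKM, and the difference was 1.52 (SE 0.35, limma adjusted p = 0.00245). Cacna1g was low in both, at 0.0359, 0.113 and 0.836 RPKM in Epi and 0.960, 2.02 and 4.45 RPKM in Foll, without overlap (difference -1.44, SE 0.21, limma adjusted p = 6.33e-06). Kcnk1, a tandem-pore channel of weak current, averaged 1.08 ± 1.47 RPKM in Epi and 2.99 ± 2.94 RPKM in Foll with overlap (difference -1.01, SE 0.30, limma adjusted p = 0.0163) and was not called after either other scaling. Epidermis markers (5 genes) summed to 3154 to 4848 RPKM in Epi and 872 to 4780 RPKM in Foll, so the Foll libraries spread widely in them, and the part of this in the 4 calls was not tested.

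BuSC against HGSC sets the 2 stem cell pools of the follicle side by side. A pseudocount of 0.1 and voom on the recovered reads called more channel genes than the main test, with the counts given below. Voom differences were -6.01 for Scn4b, 3.89 for Cacna2d1 and 3.72 for Kcnn3, none of them called in the main test. In the main test few channel genes were called. Higher in BuSC were Kcnma1 and Kcnj15, beside 3.82% of all tested genes, and lower were Kcnip2 and Cacng4, beside 2.03%. Kcnma1, the pore of the large-conductance calcium-activated channel, had 0.467, 1.03 and 5.65 RPKM in BuSC against 0, 0 and 0.0636 RPKM in HGSC (lowest, median, highest). Every BuSC library was above every HGSC library, and the difference was 1.26 (SE 0.22, limma adjusted p = 5.4e-05). Dermal fibroblast markers (9 genes) also ran higher, at 1100 to 8536 RPKM in BuSC and 33.9 to 243 RPKM in HGSC. Kcnma1 averaged 1.76 ± 1.71 RPKM in BuSC and 0.373 ± 0.215 RPKM in DF, where these markers summed to 40124 to 52795 RPKM, and their part in the Kcnma1 result was not tested.

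The other 3 calls overlapped in range. Kcnj15 had 8.50, 12.6 and 31.1 RPKM in BuSC and 2.66, 7.49 and 13.8 RPKM in HGSC (lowest, median, highest; difference 1.00, SE 0.26, limma adjusted p = 0.00863), which sits at the threshold of 1 and was 0.97 after quantile scaling. Kcnip2, a calcium-binding subunit of the Kcnd channels of heart, had 0.574, 1.86 and 3.34 RPKM in BuSC and 1.02, 6.62 and 10.4 RPKM in HGSC (difference -1.15, SE 0.32, limma adjusted p = 0.0143). It was also the gene called highest in HGSC, a call lost without BuSC zone 3 replicate 2 or without HGSC zone 4 replicate 2. Cacng4, a gamma subunit of the AMPA receptor type, had a median of 0 RPKM in BuSC and 0.776 RPKM in HGSC, where a single library reached 16.7 RPKM (difference -1.14, SE 0.28, limma adjusted p = 0.00521), and was not called after median-of-ratios scaling.

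Leaving out single libraries moved these small counts. The count higher in BuSC fell to 1 without BuSC zone 2 replicate 2, HGSC replicate 1 of zones 1 or 2, or HGSC replicate 2 of zones 3 or 4. The count lower in BuSC was 1 without BuSC zone 3 replicate 2 or HGSC replicate 2 of zones 3 or 4, and 4 without HGSC zone 1 replicate 1.

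Mesenchyme, the mean of DP and DF, was set against the mean of the 4 keratinocyte populations as the broadest split of the sort. It gave 20 channel genes higher in mesenchyme (24.1% of those tested, beside 9.77% of all tested genes) and 5 lower (6.02%, beside 18.5%). These shares of all genes depend on the scaling. All genes split 1635 higher to 3099 lower as deposited, 2189 to 1961 after quantile scaling and 2475 to 1692 after median-of-ratios scaling. Of the calcium channel genes, 4 of 6 tested pores, 2 of 3 tested alpha2delta and 2 of 3 tested gamma subunits were higher in mesenchyme. Of the voltage-gated potassium pores 6 of 23 tested were higher. A call on the mean of DP and DF can come from 1 of them alone. Cacng7 in DF did not pass against BuSC (0.35, limma adjusted p = 0.365). Kcna1 in DP did not pass against BuSC either (0.45, limma adjusted p = 0.0874). Cacna2d1 and Cacna1a, described below, were high in both. The 5 lower genes were Kcnj15 (-2.51, SE 0.16, limma adjusted p = 8.29e-16), Kcnj16 (-2.28), Kcnj2 (-1.67), Kcnip2 (-1.08) and Kcnk7 (-1.01). With a pseudocount of 0.1 the counts were 42 higher and 15 lower, beside 2708 and 4335 of all tested genes. With voom on the recovered reads they were 44 and 20, beside 2869 and 4932. Kcnip2 and Kcnk7 were lost under quantile and median-of-ratios scaling and without the 4 libraries that stand closest to another population. The median difference of the tested channel genes was 0.32 as deposited and 0.48 after median-of-ratios scaling, and that of all tested genes -0.27 and 0.04.

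Genes high in both DP and DF were among those that DP against DF did not call. Cacna2d1 averaged 13.3 RPKM over DP and DF and 0.477 RPKM over keratinocytes (difference 3.34, SE 0.11, limma adjusted p = 3.01e-24). No library of DP or DF had less than 9.19 RPKM, and no keratinocyte library more than 2.36 RPKM, in BuSC. Cacna1a averaged 7.31 RPKM over DP and DF and 0.617 RPKM over keratinocytes (difference 2.48, SE 0.14, limma adjusted p = 4.80e-17), again without overlap: the lowest mesenchymal library had 5.81 RPKM and the highest keratinocyte library, of BuSC, 4.59 RPKM. Cacna2d3, a second alpha2delta subunit, averaged 4.03 RPKM over DP and DF and 1.07 RPKM over keratinocytes (difference 1.39, SE 0.18, limma adjusted p = 3.18e-08). Of the tested calcium channel genes, 4 of 6 pores, 2 of 3 alpha2delta and 2 of 3 gamma subunits were called higher in mesenchyme. These calls are on the mean of DP and DF, which 1 of them alone can carry. Of the beta subunits, 0 of 4 were called in either direction. The beta subunit Cacnb3 was found at 7.61 to 19.1 RPKM on average everywhere.

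Differences among the 4 zones of 1 population were few. By the moderated F test 1 channel gene was called in DP (beside 0.43% of all tested genes), 1 in BuSC (0.359%), 2 in Foll (1.03%) and 2 in Neg (1.01%). In DF, HGSC and Epi limma called 0 (beside 0.197%, 0.137% and 1.79%), with 6, 7 and 3 channel genes at an unadjusted p under 0.05 and 0 each by voom on the recovered reads. The leading DP gene, Cacna1g, averaged 231 RPKM in zone 1, 174 in zone 2, 195 in zone 3 and 177 in zone 4 and was not called.

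Cacng5 was the DP gene with a zone pattern. Its 2 replicates had 1.74 and 2.48 RPKM in zone 1, 6.63 and 7.28 RPKM in zone 2, 2.49 and 4.26 RPKM in zone 3, and 0.629 and 0.677 RPKM in zone 4 (limma adjusted p = 7.24e-08). Zone 2 was highest and zone 4 lowest in both replicates, with no overlap of either with another zone. Papilla markers in the same libraries summed to 1304 and 1384 RPKM in zone 1, 1523 and 1382 in zone 2, 1640 and 1597 in zone 3, and 1668 and 1406 in zone 4, and their part was not tested. The linear trend was -0.36 per zone step (SE 0.066), and it differed from the mean trend of the other 6 populations by -0.353 (limma adjusted p = 0.0176). The zone call was absent with a pseudocount of 0.1 and with voom on the recovered reads.

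In BuSC, Kcng1, a silent subunit that modifies Kcnb channels, had 3.04 and 2.87 RPKM in zone 1, 0.322 and 0.664 in zone 2, 0.572 and 0.208 in zone 3, and 0 in both libraries of zone 4 (limma adjusted p = 0.0210). Both zone 1 libraries were above all others. The trend of -0.61 per zone step (SE 0.12) differed from that of the other populations by -0.677 (limma adjusted p = 0.00651). Kcng1 was also called higher in DP than in DF, and papilla markers in BuSC ran from 43.5 to 96.8 RPKM, with 55.7 and 53.4 RPKM in zone 1. Dermal fibroblast markers in BuSC were 1423 and 1199 RPKM in zone 1, 1100 and 2100 in zone 2, 2553 and 2207 in zone 3, and 8536 and 2600 in zone 4, and the part of either marker list was not tested. The call was lost without either library of zone 1 or without zone 4 replicate 1.

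In Neg, Kcnmb1 had 0.635 and 0.799 RPKM in zone 1, 2.94 and 4.81 in zone 2, 2.57 and 2.90 in zone 3, and 0.516 and 1.99 in zone 4 (limma adjusted p = 0.00536). Zones 2 and 3 were high and the linear trend was near 0. Smooth muscle markers in these libraries summed to 461 and 498 RPKM in zone 1, 919 and 772 in zone 2, 609 and 620 in zone 3, and 948 and 663 in zone 4, and their part was not tested. Kcnt1, a sodium-activated potassium channel pore, had at most 1.97 RPKM and passed narrowly (limma adjusted p = 0.0469). It was lost with a pseudocount of 0.1, after quantile scaling and with voom on the recovered reads. In 51 of the 56 fits that each left out 1 library, most of them of another population, the call was lost or the trend changed sign.

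In Foll, Kcnip4, an auxiliary subunit of the Kcnd channels, had 0.0919 and 0.567 RPKM in zone 1, 4.26 and 8.39 in zone 2, 0.410 and 0.794 in zone 3, and 12.9 and 3.02 in zone 4 (limma adjusted p = 0.0334). Kcnab3, a cytosolic beta subunit, had 0.0715 and 0 RPKM, 34.5 and 1.76 RPKM, 0 and 0.215 RPKM, and 6.71 and 4.62 RPKM in zones 1 to 4 (limma adjusted p = 0.0286). Both were higher in the even zones, and a single zone 2 library held most of the Kcnab3 signal. Epidermis markers in Foll also varied between replicates, from 1543 and 2027 RPKM in zone 1 and 872 and 3703 in zone 2 to 1070 and 4780 in zone 3 and 1673 and 3640 in zone 4, and their part was not tested. Kcnab3 was lost without Foll replicate 1 of any zone, Kcnip4 without that of zone 1, 3 or 4, and the number of zone calls over all populations was 12 in place of 6 without the 4 libraries that stand closest to another population.

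**Figure D5:**
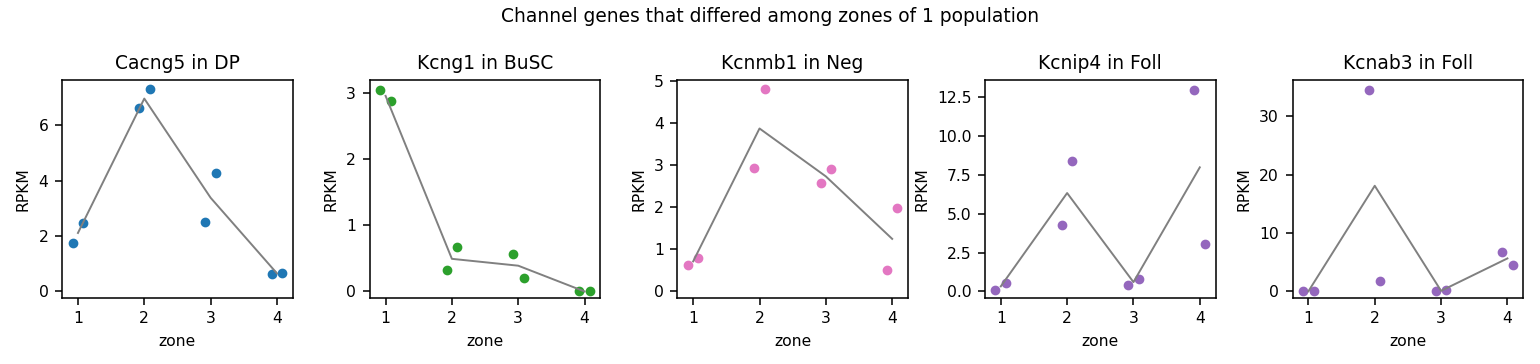
RPKM by zone (1 to 4) for the channel genes that differed among the zones of 1 population, on linear axes that differ between panels. Points are the 2 replicates and lines join zone means. Cacng5 in DP peaks in zone 2, and Kcng1 in BuSC is highest in zone 1 and at 0 in zone 4.

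Genes of calcium release, other cation channels and the sodium-potassium pump were looked up as the setting in which the channels work. Of 11 tested genes of calcium release and store-operated entry, 2 were higher in DP than in DF (beside 24.2% of all tested genes): Itpr2 (8.86 RPKM in DP and 3.14 RPKM in DF, difference 1.25) and Orai2 (1.96 RPKM in DP and 0.345 RPKM in DF, difference 1.15). Mesenchyme and keratinocytes differed in the inositol trisphosphate receptors, the calcium release channels of the endoplasmic reticulum. Itpr1 averaged 10.6 RPKM in mesenchyme and 1.27 RPKM in keratinocytes (difference 2.44, SE 0.16, limma adjusted p = 1.34e-15). Itpr3 averaged 2.46 RPKM in mesenchyme and 46.2 RPKM in keratinocytes (difference -3.78, SE 0.099, limma adjusted p = 7.09e-27), and Itpr2 6.00 RPKM in mesenchyme and 32.7 RPKM in keratinocytes. Of this list, 2 genes were higher and 4 lower in mesenchyme (beside 9.77% and 18.5% of all tested genes).

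Of 20 tested Trp and Piezo genes, 4 were higher and 1 lower in DP than in DF, shares close to the 24.2% and 6.13% of all tested genes. The widest difference was that of Trpv6, a calcium-selective channel (6.84 RPKM in DP and 0.459 RPKM in DF, difference 2.39, SE 0.35, limma adjusted p = 5.14e-07). Trpv6 was also higher in Epi than in Foll, at 20.1 RPKM in Epi and 6.57 RPKM in Foll. Against keratinocytes, mesenchyme was higher for 4 and lower for 3 of the list (beside 9.77% and 18.5% of all tested genes). Among those lower were the warmth-sensing channels Trpv4 (1.06 RPKM in mesenchyme and 18.8 RPKM in keratinocytes, difference -2.92) and Trpv3 (0.0499 RPKM in mesenchyme and 5.91 RPKM in keratinocytes, difference -2.50). BuSC was higher than HGSC for Piezo2, a touch channel (2.45 RPKM in BuSC and 0.113 RPKM in HGSC, difference 1.45), and lower for Trpm1 (-1.12). Of 10 tested HCN, NALCN, proton and endolysosomal channel genes, 1 was higher and 1 lower in mesenchyme than in keratinocytes. These were Tpcn1 (difference 1.63) and Unc79 (-1.30), beside the same 9.77% and 18.5% of all tested genes.

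For the sodium-potassium pump, which makes the gradients that these channels spend, 3 of 13 tested genes were lower in DP than in DF (beside 6.13% of all tested genes), among them Atp1b2 (1.36 RPKM in DP and 11.9 RPKM in DF, difference -2.42) and Fxyd6 (1.22 RPKM in DP and 10.5 RPKM in DF, difference -2.37). BuSC exceeded HGSC for Fxyd1 (20.4 RPKM in BuSC and 2.26 RPKM in HGSC, difference 2.96), beside the fibroblast markers given above. Mesenchyme was higher than keratinocytes for 5 pump genes and lower for 3 (beside 9.77% and 18.5% of all tested genes). Fxyd1 had 83.9 RPKM in mesenchyme and 6.45 RPKM in keratinocytes (difference 4.81), and Fxyd3 had 1.67 RPKM in mesenchyme and 240.5 RPKM in keratinocytes (difference -6.71). Epi was higher than Foll for Atp1b1 (difference 1.12) and lower for Fxyd6 (-1.39) and Fxyd1 (-1.34).

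The 48 channel genes that were not tested included the calcium pores of skeletal muscle and retina (Cacna1s and Cacna1f) and of nerve endings (Cacna1b), the sodium pores of pain neurons (Scn9a, Scn10a and Scn11a), the ATP-sensitive rectifier Kcnj11 and the heart subunit Kcne1. None reached 1 RPKM in more than 1 library, which at these depths says that they were low in the pooled cells and leaves rare cells undescribed.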

How the data were processed

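RNA of 7 sorted skin populations was measured by RNA sequencing in 56 libraries. Per the labels' protocols, 6 ng of RNA with an integrity number of 8.8 or more was amplified. The deposited values are RPKM per gene, computed by the authors. The submitters' processing notes name, in no order, the tools STAR 2.4.0, DESeq2, edgeR, limma and featureCounts and the build mm10. The sources used here give neither strand nor filters before deposit. All columns were mapped to samples by name.

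For 22231 of 22233 genes above 0 the RPKM of a library were whole multiples of 1 read in all libraries, within 0.02 reads (99.99%), which gave totals of 3.24 to 87.8 M reads. Deeper libraries carry less counting error, and no interval is given since amplified reads are not independent molecules. Tests used limma 3.58.1 in R 4.3.3 on log2(RPKM + 1), with an abundance trend of the variance, 28 group means, 28 residual degrees of freedom and Benjamini-Hochberg adjustment over all 16731 tested genes; all were two-sided. Zone trends used weights of -3, -1, 1 and 3 over 10. The calling script was tested on simulated data. Tables and figures were made with Python 3.11.15, pandas 2.3.3, numpy 2.4.6 and matplotlib 3.10.9. The spread behind a p-value is that between the replicates of a zone.

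Named genes were the 12 channel genes with the highest mean over populations, up to 6 per direction of a comparison with a mean of at least 2 RPKM, up to 8 per population in which they were highest, up to 4 per zone trend, and the highest of each family. Others are named where a count is small or they were chosen after their values were seen. The genes, lists and tests were chosen with earlier results of these data known. Positions, neighbours and promoters are from RefSeq (GRCm38.p6) for 130 of the 131 genes, and exon overlaps from GENCODE M21. Alternatives tried were another pseudocount, no filter, 2 other scalings, voom with limma on the recovered reads, a replicate block, leaving out each library and leaving out 4 libraries. The comparison of zone trends between populations was added after seeing the data. Kcnj8 and Scn7a are not reported here.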

Additional observations from a re-analysis of the deposited data

Results flagged for a closer look

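For 34 pairs of a named channel gene and a population, the 8 libraries were checked for a single value far from the rest, measured by its gap to the next as a share of the range. The cutoff is set to pick out about 1 in 20 sets of normally distributed values. These pairs were chosen by their levels or calls, so the 6 picked out here cannot be set against that share. In DF, Kcnj6 had 3.88 RPKM in zone 4 replicate 2, with the next library at 1.78 RPKM. In Foll, zone 2 replicate 1 was highest for 2 genes, at 9.70 RPKM for Kcnk1, with the next at 4.63 RPKM, and at 34.5 RPKM for Kcnab3, with the next at 6.71 RPKM. In Epi, Kcnj9 had 20.9 RPKM in zone 3 replicate 1, with the next at 8.28 RPKM. In Neg, zone 1 replicate 1 was highest for Kcna2 at 13.6 RPKM, with the next at 11.3 RPKM, and lowest for Scn3a at 2.99 RPKM, with the next at 4.96 RPKM.

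Zone trends of 2 channel genes differed between a population and the mean of the other 6 by a test of that difference: Cacng5 in DP by -0.353 log2 per zone step (limma adjusted p = 0.0176) and Kcng1 in BuSC by -0.677 (limma adjusted p = 0.00651). Zone and batch cannot be told apart for either.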

How the results depend on the processing

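Leaving out genes by the low-value filter or not, and adding a replicate block, moved no count between populations by more than 1.5 times; with the block the zone calls were 5, in place of 6. Same-numbered replicates of a zone did not deviate together in RNA levels (84 pairs of libraries, r from -0.028 to 0.085, 0 over 0.1). This cannot show whether libraries of the same number shared animals or a run. In zones 1 and 4 replicate 1 had more reads than replicate 2 in every population, as with 19.1 and 9.24 M in DP zone 1. A pseudocount of 0.1 gave 32 genes highest in a population in place of 21, 1 zone call in place of 6, 23 higher in DP than in DF in place of 14, 10 higher and 7 lower in BuSC than in HGSC in place of 2 and 2, 1 higher and 7 lower in Epi than in Foll in place of 2 and 2, and 42 higher and 15 lower in mesenchyme than in keratinocytes in place of 20 and 5. By population it gave 5 genes highest in DF, 1 in BuSC, 0 in HGSC, 1 in Epi and 14 in Neg. Voom on the recovered reads gave 34 genes highest in a population, 25 higher in DP, 8 higher and 11 lower in BuSC, 7 lower in Epi, 44 higher and 20 lower in mesenchyme, and by population 11 in DP, 5 in DF, 1 in BuSC, 0 in HGSC, 1 in Epi and 15 in Neg. Quantile scaling gave 1 higher in BuSC, 1 lower in Epi, 3 lower in mesenchyme, and 8, 0 and 3 genes highest in DF, Foll and Neg. Median-of-ratios scaling gave 1 lower in BuSC, 1 lower in Epi, 3 lower in mesenchyme, and 8, 0 and 4 highest in DF, Foll and Neg. Without the 4 libraries closest to another population there were 12 zone calls and 3 lower in mesenchyme. Calls over all tested genes moved too. The pseudocount of 0.1 gave 875 higher and 455 lower in BuSC, and 349 and 1536 in Epi. Voom gave 947 and 644 in BuSC, and 407 and 1462 in Epi. As deposited they were 639 and 339 in BuSC, and 322 and 981 in Epi. Those for DP and mesenchyme are given above. The cause of these shifts was not tested.

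Leaving out each library in turn gave 73 to 77 genes that differed among populations, 19 to 23 highest in a population, 3 to 8 zone calls, 13 to 16 higher and 12 to 14 lower in DP, 1 to 3 higher and 1 to 4 lower in BuSC, 1 to 2 higher and 1 to 4 lower in Epi, and 18 to 20 higher and 4 to 5 lower in mesenchyme. Genes highest in a population numbered 7 in DP in each such fit, 2 to 4 in DF, 0 to 1 in BuSC, HGSC and Foll, 1 to 2 in Epi and 6 to 9 in Neg. Of 25 named differences none reversed and 2 were lost without some library, Kcnj16 in Epi against Foll and Kcnk7 in mesenchyme against keratinocytes. The zone trend of Kcnmb1 in Neg was between -0.089 (without zone 4 replicate 2) and 0.20 (without zone 4 replicate 1), and that of Kcnt1 in Neg between -0.14 (without zone 1 replicate 1) and 0.013 (without zone 1 replicate 2). Each zone of a population had 2 libraries.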

Other observations

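The gamma subunits Cacng7 and Cacng5 are best known as partners of AMPA-type glutamate receptors, so the 4 receptor genes were looked up after the channel values were seen. Gria3 had 0.0161, 0.515 and 3.68 RPKM in DP and 5.25, 7.91 and 11.9 RPKM in DF (lowest, median, highest), and Gria4 0.0557, 2.41 and 6.02 RPKM in DP and 6.17, 7.94 and 18.5 RPKM in DF. Both were lower in DP without overlap of the ranges, by -2.48 for Gria3 (limma adjusted p = 1.33e-10) and -1.68 for Gria4 (limma adjusted p = 3.05e-09). Gria2 averaged 0.00571 RPKM in DP and 0.0011 RPKM in DF, and Gria1 was at or below a mean of 0.0708 RPKM in every population and was not tested.

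Kcnj3, the partner of Kcnj6 in G-protein-gated rectifiers, averaged 1.35 ± 1.62 RPKM in DP and 0.507 ± 0.940 RPKM in DF, whereas Kcnj6 averaged 0.0169 RPKM in DP and 1.36 ± 1.13 RPKM in DF. Kcnj10, a partner of Kcnj16 in kidney, was at 0 in all Epi and Foll libraries, where Kcnj16 was highest, and averaged 1.16 ± 0.594 RPKM in Neg; Kcnj15, its other known partner, averaged 16.1 RPKM in Epi and 14.1 RPKM in Foll. Kcnma1 and Kcnmb1, pore and beta subunit of the BK channel, were highest in different populations, BuSC at 1.76 ± 1.71 RPKM and DF at 6.01 ± 1.79 RPKM. These pairs were chosen after their values were seen and were not tested as pairs.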
